A study of Mus musculus with 25 samples.

Results

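Ihubacter, Aminipila and Emergencia are anaerobic genera of the order Eubacteriales, placed by the taxonomy of these data in Family XIII Incertae Sedis. Their members here were the amplicon sequence variants (ASVs, distinct 16S rRNA gene sequences left after error removal) whose genus name was 1 of these 3. The rule found 22 of 1555 ASVs, of which 16 were Ihubacter, 3 Aminipila and 3 Emergencia. The genera were chosen by name with earlier results of the same libraries known: Ihubacter had been called with DESeq2 as lower in OVX+FMT than in OVX+PBS. The values of that contrast, and of OVX+PBS against OVX, which shares the OVX+PBS libraries, are therefore given as a description with no p. Over all genera and ASVs these contrasts give background counts only.

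Feces of C57BL/6 mice were profiled by long-read sequencing of full-length 16S rRNA gene amplicons, with 5 libraries in each of 5 groups. The groups were OVX+FMT, OVX+PBS, OVX+GEX, OVX without a further treatment, and Sham. OVX is the usual abbreviation of ovariectomy, which removes the main source of estrogen, and Sham stands for surgery without that removal. FMT commonly stands for transplantation of fecal microbiota, and PBS, a buffered saline, is a common vehicle. The labels do not spell out GEX, which the design text makes a traditional medicine, and they name no donor of the transplants, no dose, age or time and no cage. The libraries are labelled as separate samples and nothing more, so the spread behind each p-value is that between these libraries, which may be technical. Library totals ran from 9484 to 22403 counts in OVX+FMT, 8558 to 21751 in OVX+PBS, 8498 to 10771 in OVX+GEX, 9189 to 11252 in OVX and 9735 to 22404 in Sham.

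Members of this family ferment amino acids and related compounds in the gut and in anaerobic digesters. Ihubacter massiliensis is an anaerobe isolated from human gut samples. Aminipila butyrica, isolated from a methanogenic reactor of cattle waste, breaks down amino acids and forms butyrate. Emergencia timonensis, from the human gut, converts gamma-butyrobetaine, a product of carnitine, into trimethylamine. The liver oxidises trimethylamine to trimethylamine N-oxide (TMAO), the metabolite named in the study's title. A share of 16S counts shows how much of a library carries a name. It does not show that the bacteria carry the genes for a product or form it.

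The 3 genera differed widely in abundance. Ihubacter held 1919 counts and was found in all 25 libraries. Aminipila held 42 counts in 11 libraries, and Emergencia 13 counts in 4 libraries. Together they made up 1974 counts, or 0.656% of the 300831 counts of the series and 69.8% of the 2830 counts of family XIII. Each genus went under a single species name in the taxonomy, Ihubacter massiliensis, Aminipila butyrica and Emergencia timonensis. Of the 22 ASVs, 6 passed the filter of the ASV test (5 or more libraries with 3 or more counts). All 6 were Ihubacter and held 1707 counts, or 86.5% of the counts of the 3 genera. Another 9 of the 22 ASVs (40.9%) were seen in 1 library only, next to 608 of 1555 ASVs (39.1%) in the whole table.

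Ihubacter was the one genus of the 3 whose share could be measured in every library. In OVX+FMT it took 0.147%, 0.427%, 0.705%, 0.517% and 0.137% of the counts of replicates 1 to 5. In OVX+PBS the shares were 1.50%, 1.43%, 1.30%, 0.269% and 0.249%. The OVX+PBS libraries fell into 3 high and 2 low ones, with no library between 0.269% and 1.30%. In OVX+GEX the shares were 0.874%, 1.34%, 0.721%, 0.730% and 0.158%. In OVX they were 0.587%, 0.406%, 0.435%, 0.524% and 0.778%. In Sham they were 0.586%, 0.564%, 0.570%, 0.580% and 0.563%, a range narrower than in any other group. The 95% Wilson interval, which covers counting error only, ran from 1.35% to 1.67% for the highest library, OVX+PBS replicate 1 with 327 counts. It ran from 0.0986% to 0.253% for OVX+GEX replicate 5, which had the fewest counts, 17.

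**Figure D1:**
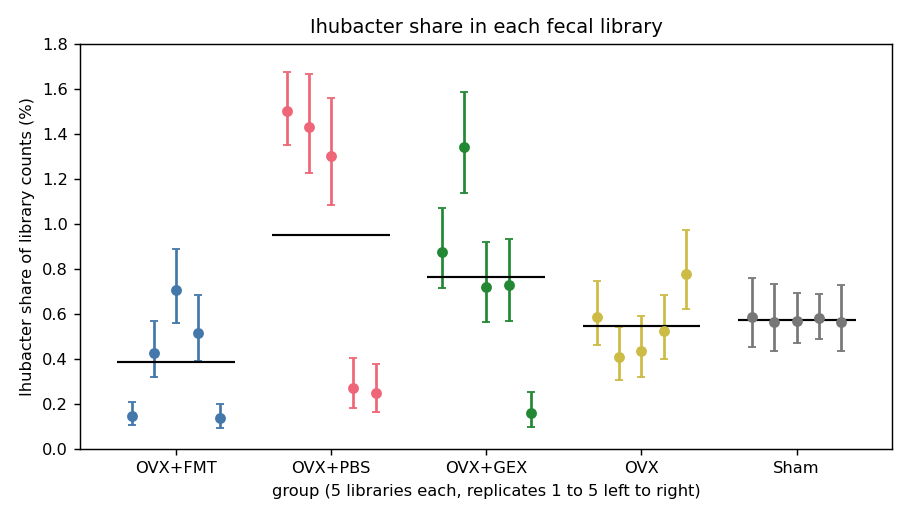
Ihubacter share of the counts of each library (vertical axis, percent) by group (horizontal axis), with replicates 1 to 5 of a group from left to right. Points are libraries, vertical bars 95% Wilson intervals of counting error and horizontal lines group means; the OVX+PBS points split into 3 at 1.30% or above and 2 below 0.27%, while the Sham points all lie between 0.563% and 0.586%.

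Mean Ihubacter shares were 0.387% ± 0.245 in OVX+FMT, 0.951% ± 0.636 in OVX+PBS, 0.765% ± 0.424 in OVX+GEX, 0.546% ± 0.148 in OVX and 0.572% ± 0.0102 in Sham (SD, n = 5 each). From high to low the order was OVX+PBS, OVX+GEX, Sham, OVX and OVX+FMT, and each neighbouring pair in it overlapped. The coefficient of variation was 63.3% in OVX+FMT, 66.9% in OVX+PBS, 55.4% in OVX+GEX, 27.1% in OVX and 1.77% in Sham. The deepest libraries did not lie on one side. OVX+FMT replicates 1 and 5, with 22403 and 19736 counts, had the lowest shares of their group, and OVX+PBS replicate 1, with 21751 counts, had the highest of its own. Over all 25 libraries Spearman's rho of the Ihubacter share with the library total was -0.087, given as a description. The part of depth in the spread within groups was not tested.

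The evenness of Sham was set against counting error by the chi-square of the Ihubacter counts per degree of freedom, which is near 1 where libraries of a group differ by independent counting alone. The index was 26.6 in OVX+FMT, 40.3 in OVX+PBS, 24.8 in OVX+GEX, 4.02 in OVX and 0.0210 in Sham. In Sham it was the lowest of the 49 genera with a mean count of at least 20 there, whose median was 24.2. In OVX, 2 of 37 such genera had a lower index than Ihubacter, in OVX+GEX 10 of 37, in OVX+PBS 15 of 34 and in OVX+FMT 16 of 43. The genera were not matched for mean count, with which the index rises where the spread exceeds counting error. The relatives Anaerovorax and Sinanaerobacter had indices of 5.00 and 1.65 in Sham. The Sham libraries thus held Ihubacter at shares of total counts closer together than counting error alone gives on average, although their totals ran from 9735 to 22404. The index was not computed for other denominators.

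The even total of Sham was not carried by one sequence variant. Sham replicate 1 was led by ASV_626, which held 47.4% of its Ihubacter counts (27 counts) and was seen in no other library. Sham replicates 2 and 5 were led by ASV_121, with 36.4% and 42.1%. Sham replicates 3 and 4 were led by ASV_96, with 42.4% and 31.5%, and ASV_96 was at 0 in the other 3 Sham libraries. Over all 25 libraries the leading ASV was ASV_96 in 8, ASV_83 in 6, ASV_121 in 4, ASV_197 in 3, ASV_154 in 2, and ASV_626 and ASV_271 in 1 each. It held between 23.9% and 82.4% of a library's Ihubacter counts. The highest of these was OVX+GEX replicate 5, where ASV_271 held 14 of 17 counts.

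**Figure D2:**
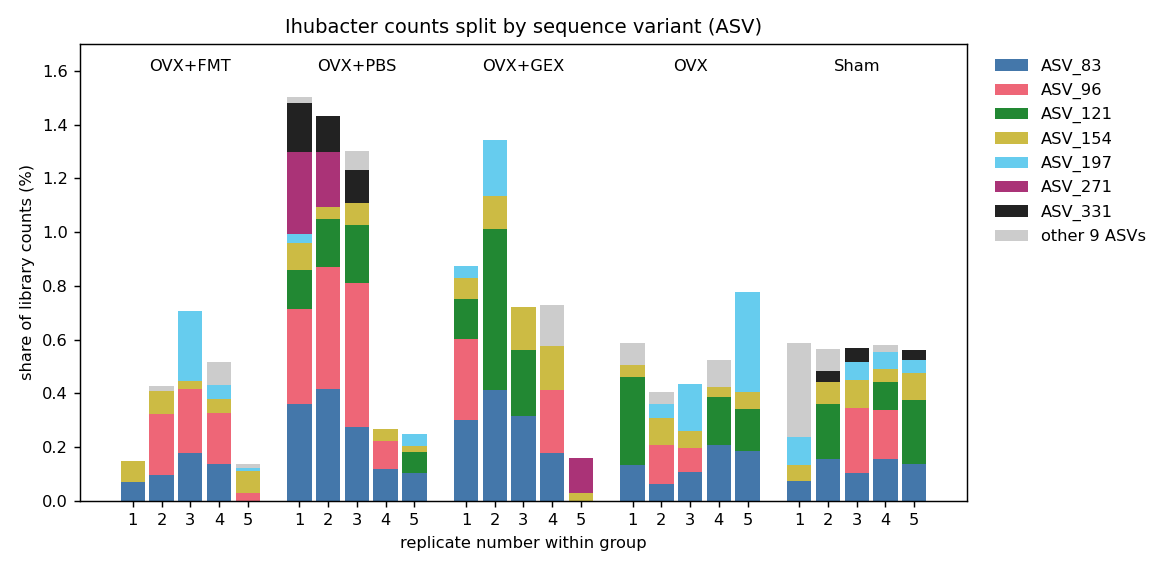
Ihubacter share of library counts (vertical axis, percent) in each library (horizontal axis, replicates 1 to 5 within each group), split by ASV. Colours mark the 7 ASVs with the most counts and grey the other 9; Sham columns have nearly the same height with different colours, ASV_121 is missing from all OVX+FMT columns, and ASV_331 appears in 3 OVX+PBS and 3 Sham columns only.

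The ASVs of Ihubacter fell into a widespread and a patchy kind. ASV_154 was found in all 25 libraries with 226 counts (11.8% of the genus), and its shares stayed between 0.0226% and 0.165%. ASV_83, the largest with 501 counts (26.1%), was found in 23 libraries and was at 0 in OVX+FMT replicate 5 and OVX+GEX replicate 5. Its mean share was 0.0964% ± 0.0678 in OVX+FMT, 0.254% ± 0.142 in OVX+PBS, 0.241% ± 0.158 in OVX+GEX, 0.140% ± 0.0584 in OVX and 0.125% ± 0.0362 in Sham (SD, n = 5 each). ASV_96 held 415 counts (21.6%) in 14 libraries and ASV_197 held 169 counts (8.81%) in 14. A library either held ASV_96 at 0.0304% or more or had a count of 0 for it.

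ASV_96 was found in 4 libraries of OVX+FMT, 4 of OVX+PBS, 2 of OVX+GEX, 2 of OVX and 2 of Sham. Its shares in OVX+PBS replicates 1 to 5 were 0.354%, 0.453%, 0.536%, 0.105% and 0. In OVX+FMT they were 0, 0.228%, 0.238%, 0.190% and 0.0304%. Its highest shares thus stood in the 3 OVX+PBS libraries that were high for the genus as a whole. ASV_96 is itself part of that whole, with 23.5%, 31.7% and 41.2% of the Ihubacter counts of OVX+PBS replicates 1 to 3.

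ASV_121 held 313 counts (16.3%) in 13 libraries and was at 0 in all 5 OVX+FMT libraries. It was found in 4 libraries of OVX+PBS and in 3 each of OVX+GEX, OVX and Sham. In OVX+PBS its shares were 0.147%, 0.178%, 0.217%, 0 and 0.0792% in replicates 1 to 5. For a count of 0 in an OVX+FMT library the share of 3 counts, 0.0134% to 0.0316%, was used as a floor. The table holds no count of 1, so a 0 may hide a single read and allow a higher share. Against that floor the mean of OVX+FMT was at least 5.24-fold lower than that of OVX+PBS, taken as measured. Without OVX+PBS replicate 3 the bound was 4.26-fold. The groups overlapped, since OVX+PBS replicate 4 was also at 0. The highest share of ASV_121 was 0.601% in OVX+GEX replicate 2, the library that was also highest in OVX+GEX for the genus. ASV_121 itself made up 44.8% of the Ihubacter counts there.

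ASV_331, with 83 counts, was found in 3 OVX+PBS and 3 Sham libraries and was at 0 in the other 3 groups. The OVX+PBS counts were 40, 15 and 11 in replicates 1 to 3, and the Sham counts were 4, 9 and 4 in replicates 2, 3 and 5. Against floors of 3 counts per library, its mean share was at least 3.01-fold higher in OVX+PBS than in OVX. It was at least 3.74-fold lower in OVX+FMT than in OVX+PBS. These bounds take the OVX+PBS mean as measured, 0.0886% ± 0.0839 (SD, n = 5). Without OVX+PBS replicate 1 they were 2.20-fold and 2.73-fold. ASV_271 held 103 counts in 3 libraries, with 66 in OVX+PBS replicate 1, 23 in OVX+PBS replicate 2 and 14 in OVX+GEX replicate 5. The 3 high OVX+PBS libraries thus held ASV_83, ASV_96, ASV_121, ASV_154 and ASV_331 together, and 2 of them ASV_271 as well.

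The number of Ihubacter ASVs expected in 8498 reads was 3.68 ± 1.10 in OVX+FMT, 5.38 ± 1.91 in OVX+PBS, 3.60 ± 1.14 in OVX+GEX, 4.39 ± 0.540 in OVX and 5.19 ± 0.419 in Sham (SD, n = 5 each). The lowest values were 1.99 in OVX+GEX replicate 5 and 2.00 in OVX+FMT replicate 1, and the highest was 7.88 in OVX+PBS replicate 1. All Sham libraries held 5 or 6 Ihubacter ASVs, while the OVX+PBS libraries held 3 to 8. Across the 25 libraries the shares of ASV_83 and ASV_121 had a Spearman's rho of 0.68, those of ASV_96 and ASV_331 0.44, and those of ASV_96 and ASV_121 -0.24. These are descriptions: the shares come from the same libraries and totals, and ASV_96 and ASV_121 were both present in 5 libraries only.

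Aminipila, the amino acid degrader, was close to the detection limit throughout. Its counts in replicates 1 to 5 were 2, 0, 0, 0 and 0 in OVX+FMT and 0, 2, 2, 2 and 0 in OVX+PBS. They were 3, 5, 0, 0 and 3 in OVX+GEX, 0 in every OVX library, and 2, 9, 0, 9 and 3 in Sham. The genus was thus seen in 4 Sham libraries and in no OVX library, and Sham replicate 3 overlapped with OVX at 0. The mean share was 0.0212% ± 0.0214 in OVX+GEX and 0.0365% ± 0.0345 in Sham (SD, n = 5 each). For the counts of 0 in the OVX libraries the floors of 3 counts were shares of 0.0267% to 0.0326%. Against these floors the OVX mean was at least 1.24-fold lower than the Sham mean. That bound rests on Sham replicate 2: without it, a check added after the data were seen, the Sham mean was 0.0226%, under the mean OVX floor of 0.0294%, and no bound remained. No fold is given for OVX+GEX over OVX because the OVX+GEX mean lies under the floor.

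ASV_608 held 28 of the 42 Aminipila counts (66.7%) in 8 libraries. It was in 3 libraries of OVX+PBS, 2 of OVX+GEX and 3 of Sham, and at 0 in OVX+FMT and OVX. The other 2 ASVs, ASV_1072 and ASV_1076, had 7 counts each. All 7 of ASV_1072 came from Sham replicate 2, while those of ASV_1076 came from OVX+FMT replicate 1, OVX+GEX replicate 5 and Sham replicate 2.

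Emergencia, the trimethylamine former, had counts in 4 libraries. These were 3 in OVX+FMT replicate 3, 2 in OVX+PBS replicate 3, and 2 and 6 in OVX replicates 1 and 3. All OVX+GEX and all Sham libraries were at 0. The highest share was 0.0653% in OVX replicate 3, with a 95% Wilson interval of 0.0299% to 0.142%. The genus did not pass the filter of the test, and no difference between groups is given. Its ASV_1001 held 9 of the 13 counts (69.2%), those of OVX+FMT replicate 3 and OVX replicate 3. ASV_1452 and ASV_1525 had 2 counts each, in OVX+PBS replicate 3 and OVX replicate 1. The table holds no count of 1, so a genus with a single read in a library may stand at 0 there.

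**Figure D3:**
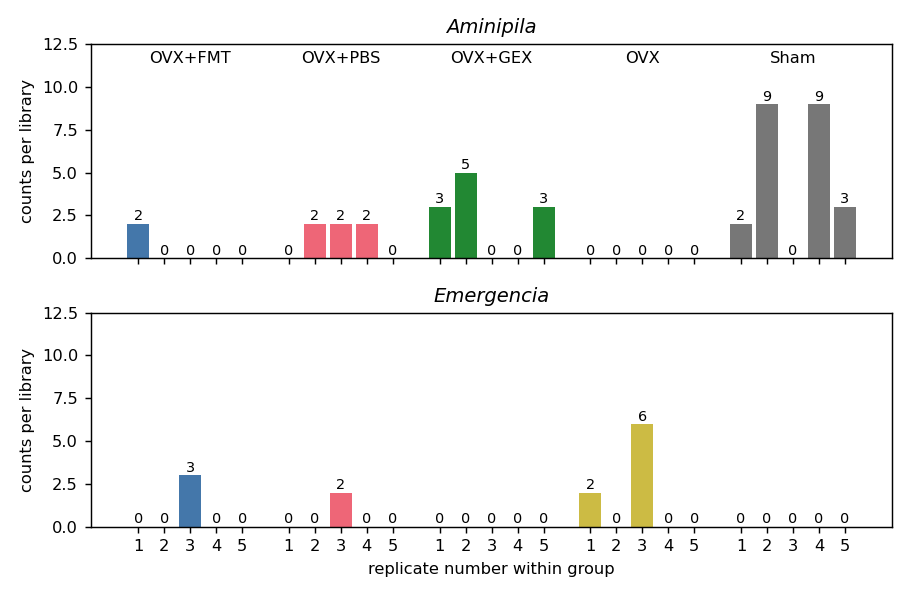
Counts of Aminipila (upper panel) and Emergencia (lower panel) in each library (vertical axis, counts per library; horizontal axis, replicates 1 to 5 within each group). Aminipila is at 0 in all OVX libraries and reaches 9 in 2 Sham libraries, and Emergencia reaches 6 in OVX replicate 3 and is at 0 in all OVX+GEX and Sham libraries.

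Whether the loss of estrogen went with a different abundance was asked by setting OVX against Sham. With edgeR's quasi-likelihood test over 81 genera and Benjamini-Hochberg adjustment, neither Ihubacter nor Aminipila passed the threshold of 0.05, and 0% of all genera did. DESeq2 and limma called 1 genus each, in neither case a member. Without adjustment edgeR put 11.1% of genera (9 of 81) under a p of 0.05. For Ihubacter edgeR gave a log2 fold change of 0.38 with an SE of 0.55 and a 95% interval of -0.70 to 1.46 (adjusted p = 0.872). Its direction depends on the scaling: with plain library totals the log2 fold change was -0.068, and the ratio of mean shares was 0.954. Of the 5 OVX libraries, 2 lay above and 3 below all Sham libraries.

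Aminipila had counts in 4 Sham libraries and none in OVX, and the fitted log2 fold change of -4.79 (SE 1.69) is no bound, since it depends on the prior count. Its edgeR p was 0.00894 before adjustment and 0.241 after. It was 1 of the 9 genera under an unadjusted 0.05. Aminipila passed the filter only through libraries of Sham and OVX+GEX, and Sham is the higher group here. Its p is therefore tied to the filter, and no support for a difference is drawn from it. No member's groups were separated without overlap, which held for 1.23% of the 81 genera in this comparison.

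The treatment was addressed by OVX+GEX against OVX. Again 0 of the 2 member genera passed, and 0% of all genera did, with 6.17% (5 of 81) under an unadjusted p of 0.05. DESeq2 called 0 genera and limma 1, which was no member. For Ihubacter edgeR gave a log2 fold change of 0.63 with an SE of 0.55 and an interval of -0.45 to 1.71 (adjusted p = 0.875). Single libraries weighed on it: the log2 fold change was 0.17 without OVX+GEX replicate 2 and 0.37 without OVX replicate 3. Its mean share was 1.40-fold that of OVX. OVX+GEX replicates 1 and 2 lay above all OVX libraries and replicate 5 below all of them. Aminipila, with 11 counts in 3 OVX+GEX libraries and none in OVX, had an edgeR p of 0.00969 before and 0.216 after adjustment. This p is tied to the filter too, which Aminipila passed only through OVX+GEX and Sham libraries. No member's groups were without overlap here either, against 1.23% of genera.

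OVX+GEX was also set against Sham, and shares the OVX+GEX libraries with the comparison above. In it 4 of 81 genera (4.94%) passed the edgeR test and 11.1% had an unadjusted p under 0.05. Ihubacter and Aminipila were not among the 4, which became 0 with plain library totals and 1 to 4 with 1 library left out. For Ihubacter edgeR gave a log2 fold change of 1.01 with an SE of 0.55 and an interval of -0.082 to 2.09 (adjusted p = 0.542). It was 0.55 without OVX+GEX replicate 2 and 0.42 with plain library totals. Its mean share was 1.34-fold that of Sham, with 4 OVX+GEX libraries above all Sham libraries and replicate 5 below all of them. For Aminipila the log2 fold change was -0.023 (SE 1.39) with an edgeR adjusted p of 0.999. Groups without overlap were found for 4.94% of genera and for no member. Median log2 fold changes over all 81 genera were 0.15 for OVX against Sham, 0.13 for OVX+GEX against OVX and -0.023 for OVX+GEX against Sham. With plain library totals they were -0.22, -0.034 and -0.61, so that each value is relative to such a shift.

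**Figure D4:**
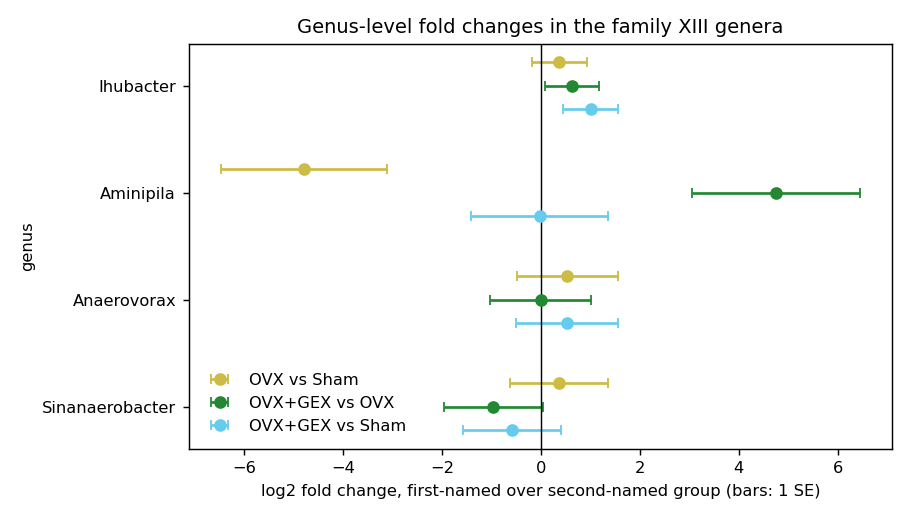
Log2 fold changes from edgeR (horizontal axis, first-named over second-named group) of Ihubacter, Aminipila and their family relatives Anaerovorax and Sinanaerobacter (vertical axis) in 3 comparisons. Bars are 1 SE; no point passed the adjusted threshold, and the Aminipila points of both comparisons with OVX rest on a group with no count and are no bounds.

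The 6 Ihubacter ASVs that passed the filter were tested among 379 ASVs. None of them passed the adjusted edgeR threshold in the 3 comparisons, and 0% of the ASVs did. In these comparisons DESeq2 called 2, 2 and 3 ASVs and limma 1, 0 and 4, none of them a member. Under an unadjusted p of 0.05 were 17.2% of ASVs in OVX against Sham, 19.3% in OVX+GEX against OVX and 18.2% in OVX+GEX against Sham. Among the members only ASV_331 was, in OVX against Sham (edgeR adjusted p = 0.182) and in OVX+GEX against Sham (edgeR adjusted p = 0.198), and OVX and OVX+GEX had no count of it. ASV_331 passed the filter only through Sham and OVX+PBS libraries, and Sham is the higher group in both comparisons. Its p-values are therefore tied to the filter, and no support for a difference is drawn from them. ASV_83 had log2 fold changes of 0.038 (SE 1.51) in OVX against Sham, 0.90 (SE 1.52) in OVX+GEX against OVX and 0.93 (SE 1.52) in OVX+GEX against Sham, with edgeR adjusted p of at least 0.985. The standard errors of the members' ASVs ran from 1.51 to 2.09 on the log2 scale.

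In the contrast that led to the choice, OVX+FMT held Ihubacter at a mean share of 0.387%, against 0.951% in OVX+PBS, which is 2.46-fold lower. The OVX+FMT libraries spanned 0.137% to 0.705% and the OVX+PBS libraries 0.249% to 1.50%, and 2 OVX+FMT libraries lay below all OVX+PBS libraries. The share of OVX+PBS was 1.74-fold that of OVX, with 3 of its libraries above all OVX libraries and 2 below all of them. The background of both contrasts was 0% of genera and 0% of ASVs past edgeR's adjusted threshold, with 0% of genera without overlap in OVX+FMT against OVX+PBS and 1.23% in OVX+PBS against OVX. DESeq2 with size factors from positive counts called 0 of 81 genera in OVX+FMT against OVX+PBS, and limma 1, which was no member. The earlier DESeq2 call of Ihubacter was thus not obtained with these settings.

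Large genera move every share, and Ihubacter was therefore also given per count outside Duncaniella and Ligilactobacillus, 2 of the most abundant genera. On that scale it took 0.701% ± 0.372 in OVX+FMT, 1.81% ± 1.01 in OVX+PBS, 1.32% ± 0.505 in OVX+GEX, 1.11% ± 0.407 in OVX and 0.770% ± 0.0791 in Sham (SD, n = 5 each). OVX was thus above Sham on this scale and below it per total count. The Sham libraries were less even here than per total count, where their SD was 0.0102. Per Firmicutes count the means were 0.549% ± 0.359 in OVX+FMT, 1.48% ± 0.764 in OVX+PBS, 0.947% ± 0.449 in OVX+GEX, 0.797% ± 0.304 in OVX and 0.713% ± 0.0728 in Sham (SD, n = 5 each). OVX+PBS had the highest and OVX+FMT the lowest mean on each of the 3 scales. Sham had the smallest SD on each, but its narrow spread of 0.0102 was seen per total count only.

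The rest of family XIII was Anaerovorax, known for fermenting putrescine, with 6 ASVs and 537 counts, and Sinanaerobacter, with 4 ASVs and 319 counts. Of 7 relatives in the list of the family Anaerovorax was the one present, and Sinanaerobacter was named after its values were seen. Anaerovorax took 0.189% ± 0.122 in OVX+FMT, 0.152% ± 0.133 in OVX+PBS, 0.202% ± 0.147 in OVX+GEX, 0.198% ± 0.0741 in OVX and 0.185% ± 0.0792 in Sham (SD, n = 5 each). Sinanaerobacter took 0.0951% ± 0.0687 in OVX+FMT, 0.0835% ± 0.0597 in OVX+PBS, 0.0740% ± 0.0827 in OVX+GEX, 0.141% ± 0.0942 in OVX and 0.145% ± 0.0396 in Sham. Neither passed edgeR's test in the 3 comparisons, with adjusted p from 0.872 to 1. OVX+GEX replicate 5 and OVX+FMT replicate 5, both low in Ihubacter, were at 0 for both relatives, and OVX+PBS replicate 5 was at 0 for Anaerovorax.

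Emergencia stands in a list of 14 genera with members known to form trimethylamine. Matching genus entries numbered 6, and 4 of them passed the filter. Clostridium and [Clostridium], both matched to the name Clostridium, were counted apart. Emergencia held 13 of the list's 12002 counts, or 0.108%, and Lachnoclostridium held 10252. The list took 1.58% ± 2.49 of counts in OVX+FMT, 1.72% ± 0.920 in OVX+PBS, 4.68% ± 3.50 in OVX+GEX, 3.78% ± 4.00 in OVX and 7.60% ± 3.52 in Sham (SD, n = 5 each). With edgeR, 0 of the 4 tested entries passed in OVX against Sham and in OVX+GEX against OVX. In OVX+GEX against Sham 1 rose and 0 fell. The list's median log2 fold changes in these comparisons were -0.55, 0.98 and -0.16. The one that rose was Shigella, an enterobacterium, with edgeR adjusted p = 0.0390. It had 14 and 419 counts in OVX+GEX replicates 1 and 4 and 0 in the other 3 and in all Sham libraries. Without OVX+GEX replicate 4 its edgeR adjusted p was 0.378, and leaving out any 1 Sham library also ended the call. Whether counts named Shigella belong to Escherichia, a separate entry of the list with 36 counts, was not tested.

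Aminipila was set beside a list of amino acid fermenters, for which 9 genus entries were tested. Clostridium and Eubacterium were each counted apart from the bracketed entries [Clostridium] and [Eubacterium]. In OVX against Sham and in OVX+GEX against OVX 0 of the 9 passed edgeR's test, and in OVX+GEX against Sham 1 rose and 0 fell. That one was Lawsonibacter, a butyrate-forming clostridium, whose log2 fold change was 3.33 with an SE of 0.76 (edgeR adjusted p = 0.0124). Its mean share was 2.10% ± 1.19 in OVX+GEX and 0.333% ± 0.201 in Sham (SD, n = 5 each). The median log2 fold changes of the 9 entries were 0.33, -0.0064 and 0.15 in the 3 comparisons. The call of Lawsonibacter was lost with plain library totals (edgeR adjusted p = 0.0594).

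The genera whose pattern was most like that of the 3 genera together were sought among the 79 other tested genera, by Spearman's rho of centred log-ratios over the 25 libraries. The median rho was 0.056 and the highest 0.46, for Anaerovorax of the same family. It was followed by Anaerocolumna at 0.44, Gluceribacter at 0.32, Caldicoprobacter at 0.31 and Shigella at 0.31. After removal of the group means rho was 0.38 for Anaerovorax, 0.38 for Anaerocolumna, 0.042 for Gluceribacter, 0.63 for Caldicoprobacter and -0.32 for Shigella. Within groups, Caldicoprobacter thus had the highest value of these 5. Within the family, the Ihubacter share had a rho of 0.50 with Anaerovorax, 0.36 with Sinanaerobacter, 0.13 with Aminipila and 0.15 with Emergencia. These values share libraries and totals and are descriptions.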

How the data were processed

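Fecal DNA from 25 mouse samples was sequenced as full-length 16S amplicons from long-read libraries, as the labels' protocols state. Per the file headers, the deposited table gives whole-number counts for each ASV and library and 7 taxonomic ranks. It has 1555 ASVs in 110 genera, 0 values of 1 and 464 of 2. Per the submitters' processing notes Subread was used, with neither version nor role stated. What denoiser, primers, filters and database were used is not given in the sources used here. Of the columns, 5 were spelled OVX+GES and taken as OVX+GEX. A sex field reading male stands at odds with ovariectomy, and sex is not stated.

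Members were ASVs with the genus name at rank 6. Members and lists were chosen with earlier results of these data known. Sums per genus, and ASV counts, went into edgeR 4.0.16 (R 4.3.3) with TMM factors and the quasi-likelihood F test, 1 fit of all 25 libraries, features with 3 or more counts in 5 or more libraries, and Benjamini-Hochberg adjustment over 81 genera or 379 ASVs. SEs came from the F statistic. Floors are 3 counts per library, and a share's precision follows from totals of 8498 to 22404. Intervals and floors cover counting error only, and do not allow for the absence of counts of 1. Taxa named were the members, their ASVs that were tested or held at least 10% of their genus, the 5 most alike genera, and list genera past the threshold. Named outside this rule were ASV_271, ASV_626, Sinanaerobacter, list entries given for their counts, and the 2 genera left out of a denominator. In simulated OVX against Sham data, 94.7% of 19 genera and 95.5% of 89 ASVs changed 16-fold were recovered, with 1 and 2 false calls. The simulation gave all features the same spread, set in advance and not taken from these libraries. Its recovery therefore does not tell how likely a change in a member was to be found. The alternatives tried were DESeq2 1.42.0 (its Wald test, and its size factors in edgeR), limma 3.58.1 (centred log-ratios after adding 0.5 to each count), TMMwsp, plain library totals, other filters and denominators, a fit of the compared groups alone, a block for the replicate number, and leaving out each library.

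No libraries of the same group were duplicates, with Bray-Curtis distances of 0.300 or more between them. Libraries of different groups were not compared in this way.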

Additional observations from a re-analysis of the deposited data

Results flagged for a closer look

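Among 75 sets of 5 libraries (the 3 genera and their named ASVs in each group), 14 had 1 library whose gap to the nearest other exceeded 0.71 of the range of its group. For 5 values from a normal distribution chance flags about 1 in 20 sets, a rate that does not hold for these sets. A set in which only 1 library has any count always meets this rule, and a set with all counts at 0 never does. Most of the flagged values are therefore 2 to 7 counts. Aminipila was at 0.00893% (2 counts) in OVX+FMT replicate 1. Emergencia was at 0.0298% in OVX+FMT replicate 3, 0.0228% in OVX+PBS replicate 3 and 0.0653% in OVX replicate 3. ASV_197 of Ihubacter stood apart at 0.258% (26 counts) in OVX+FMT replicate 3 and at 0.210% (21 counts) in OVX+GEX replicate 2, the 2 cases with more than 7 counts.

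Of the Aminipila ASVs, ASV_1072 was at 0.0717% in Sham replicate 2, and ASV_1076 at 0.00893% in OVX+FMT replicate 1, 0.0279% in OVX+GEX replicate 5 and 0.0205% in Sham replicate 2. Of the Emergencia ASVs, ASV_1001 was at 0.0298% in OVX+FMT replicate 3 and 0.0653% in OVX replicate 3, ASV_1452 at 0.0228% in OVX+PBS replicate 3 and ASV_1525 at 0.0178% in OVX replicate 1.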

How the results depend on the processing

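No member genus or ASV passed the adjusted threshold in the 3 tested comparisons under any alternative. Of 729 alternative values over 39 log2 fold changes of members, 669 kept their direction and 60 turned it. Of the turns, 42 were in 10 results of the 3 tested comparisons and 18 in 5 ASV results of the 2 described ones. The cause of the turns was not tested.

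Calls over all genera were 0 with edgeR in OVX against Sham and 1 with DESeq2's Wald test and 1 with limma on centred log-ratios; in OVX+GEX against OVX, 1 with limma and 1 with no filter; in OVX+PBS against OVX, 1 with DESeq2; in OVX+FMT against OVX+PBS, 1 with limma and 1 with no filter, and 0 to 2 leaving out 1 library (2 without OVX+FMT replicate 4). In OVX+GEX against Sham, 4 calls became 2 with TMMwsp, 2 with DESeq2 size factors, 0 with plain library totals, 2 with limma, 2 with no filter, 1 with only the groups compared, 2 without Duncaniella and Ligilactobacillus, and 1 to 4 leaving out 1 library (1 without Sham replicate 1, 2, 4 or 5). ASV calls of 0 became 2 with DESeq2, 1 with limma and 1 with no filter in OVX against Sham; 2 and 1 with DESeq2 and no filter in OVX+GEX against OVX; 3, 4, 3 and 5 with DESeq2, limma, no filter and only the groups compared in OVX+GEX against Sham; 2, 5, 6 and 2 with TMMwsp, DESeq2, no filter and the filter of at least 10 counts in OVX+PBS against OVX, with 0 to 1 leaving out 1 library (1 without OVX replicate 4); and 5 with DESeq2 in OVX+FMT against OVX+PBS, with 0 to 1 leaving out 1 library (1 without OVX+FMT replicate 4).

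With the replicate number as a block, OVX+GEX against Sham had 1 genus call and 3 ASV calls, and the log2 fold changes of ASV_96 and ASV_197 there were 0.49 and -0.094. Nothing in the labels says that the numbers pair the libraries. Deviations from group means correlated at 0.0414 on average between same-numbered libraries (50 pairs, from -0.286 to 0.336) and -0.0097 between others. Of 25 libraries, 5 correlated best with their own number among libraries of other groups, as many as unrelated numbers give on average. A shared cage or batch behind the numbers was not tested. The block changed no call of a member.

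The summed share of the 3 genera differed by -0.0464 points in OVX against Sham (0.0633 per Firmicutes count, 0.331 without Duncaniella and Ligilactobacillus, 0.0416 without ASVs seen in 1 library, -0.00735 without OVX replicate 2 and -0.100 without OVX replicate 5), 0.177 in OVX+GEX against Sham (0.540 without the same 2 genera, 0.278 without ASVs seen in 1 library) and -0.574 in OVX+FMT against OVX+PBS (-1.13 without the same 2 genera). The OVX+GEX difference was 0.224 to OVX. Without OVX+GEX replicate 2 the differences were 0.0257 to Sham and 0.0721 to OVX, and without OVX+GEX replicate 5 they were 0.328 to Sham and 0.374 to OVX.

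In OVX against Sham, the Ihubacter log2 fold change of 0.38 was -0.068 with plain library totals and -0.040 with no filter; limma gave 0.010 for ASV_96 and 0.069 for ASV_154; leaving out 1 library gave -0.26 to 0.52 for ASV_83 (lowest without Sham replicate 1) and -0.25 to 0.72 for ASV_121 (lowest without OVX replicate 1). In OVX+GEX against OVX, ASV_121 ran from -0.53 (without OVX+GEX replicate 2) to 1.02. In OVX+GEX against Sham, Aminipila was 0.14 with limma and -0.66 to 0.72 leaving out 1 library (highest without Sham replicate 2). ASV_96 (-0.048) was 0.41 with TMMwsp, 0.25 with DESeq2 size factors, 0.32 with plain library totals, 0.26 with DESeq2, 0.63 with limma, 0.60 with the filter of at least 10 counts and -1.03 to 1.22 leaving out 1 library (highest without Sham replicate 3). ASV_197 (0.043) was -0.51 with DESeq2 size factors, -0.14 with plain library totals, -0.51 with DESeq2, -0.79 with limma, -0.68 with the filter of at least 10 counts, -0.15 with no filter, -0.59 with only the groups compared and -2.50 to 0.36 leaving out 1 library (lowest without OVX+GEX replicate 2). ASV_121 ran from -0.33 (without OVX+GEX replicate 2) to 1.47. Depth limits Aminipila and Emergencia most, whose counts never exceeded 9 in a library.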
